A study of Mus musculus with 72 samples.

Results

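Reporters integrated on mouse chromosome 4 were followed along the chromosome, from the first listed position, 3499267, to the last, 155629471, a span of 152 Mb in mm9. The members were all rows of the deposited table whose chromosome was chromosome 4, which gave 1124 of 17857 reporters (6.29%), with 156 in pool mPGK-A, 198 in mPGK-B, 164 in mPGK-C, 219 in mPGK-D, 185 in mPGK-E and 202 in mPGK-F. Each reporter carried a random barcode and the mPGK promoter, taken from the mouse gene of phosphoglycerate kinase, an enzyme of glycolysis made in nearly all cells, and had been placed by the piggyBac transposon in EBRTcH3 cells, a mouse embryonic stem cell line that makes a tetracycline-controlled transactivator from the ROSA26 promoter. All pools were started from transfected cells with low eGFP in a cell sort and were kept with leukemia inhibitory factor, the MEK inhibitor PD0325901 and the GSK-3 inhibitor CHIR99021. There was no untreated or mutant group: the comparison is between places of integration of the same promoter. Each of the 6 pools was grown as 2 cultures, which the labels call technical replicates, and reads of each barcode were counted in its RNA and its genomic DNA. The labels do not say whether pools came from separate transfections, so p-values over pools measure the spread between these pools. The table holds barcode reads only, so the cell type was not checked against marker genes.

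The assay, TRIP, reads the output of an identical promoter at many sites at once. PiggyBac inserts at TTAA sites, and the chromatin around an insertion is known to influence how strongly a promoter there is transcribed. Mouse chromosomes carry their centromere at the low-coordinate end. The distal part of chromosome 4 is known for its gene-rich segment that shares ancestry with the short arm of human chromosome 1, and the chromosome also carries the clusters of the type I interferon genes and of the major urinary protein genes. Genes at the positions given here were not analysed here.

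Expression is the log2 ratio of a barcode's share of RNA reads to its share of DNA reads, averaged over both cultures, minus the median of all reporters in the pool, so 0 is the median reporter of the whole genome in that pool and 1 unit is a doubling. This ratio does not tell fewer transcribing cells from less RNA per cell. Over both cultures, medians for chromosome 4 were 1707 DNA reads and 682 RNA reads per reporter, and the lowest DNA count in a culture was 25 reads. Over all chromosomes, a pool and culture held 3386477 to 3693449 DNA reads and 2880244 to 3508366 RNA reads.

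The barcodes of the reporters at both extremes are printed because each one marks an insertion at a known place. A further reason is that 3 of the 5 highest fall together while the 5 lowest lie apart. The first set holds the 5 highest reporters of the chromosome, 3 of which lay within 15.7 kb of each other in 3 different pools.
mPGK-D, position 140853193, plus strand: atatcgtaaatagccc
mPGK-E, position 140857158, plus strand: tttgtccgttgctgta
mPGK-F, position 140841458, plus strand: gatttaagccaaacta
mPGK-C, position 55471315, minus strand: cgatactctatgtgtt
mPGK-E, position 116136003, plus strand: gtaattgacatattta

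The second set holds the 5 lowest reporters, which lay on both sides of the chromosome in 4 pools.
mPGK-E, position 43280462, minus strand: cgctgagaaaaagtat
mPGK-F, position 148109972, plus strand: tactaataatccctgg
mPGK-D, position 68286772, minus strand: caaactgtgcctaagt
mPGK-C, position 120458141, minus strand: aaaggtacacttcatt
mPGK-D, position 130275526, plus strand: acacgtgtgttctctt

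The 5 highest reporters had expression of 6.85, 6.67, 6.19, 5.72 and 5.65 on the log2 scale, in the order printed. The first of them had 7.22 and 6.40 in its 2 cultures, from 25380 and 24910 RNA reads over 547 and 911 DNA reads. Its neighbour in mPGK-E had 5.96 and 7.35, from 4668 and 4594 RNA reads over 221 and 80 DNA reads, so the cultures differed mainly in DNA reads. Among the lowest, the mPGK-E reporter at 43280462 had 0 and 7 RNA reads over 3325 and 3186 DNA reads, in a place with 5 other reporters within 100 kb. The other 4 had no RNA read in either culture, and a floor of 3 RNA reads puts them at least 169-fold, 106-fold, 102-fold and 87.4-fold below the median of their pools, in the order printed. In all, 10 of the 1124 reporters (0.890%) had no RNA read, 5 of them on each side of the middle of the chromosome, against 184 of 17857 (1.03%) in the genome.

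Most reporters of the chromosome departed from the median of their pool. In edgeR's quasi-likelihood test of RNA against DNA counts with Benjamini-Hochberg adjustment at 0.05, 469 reporters (41.7%) were higher than their pool, that is, than its median ratio of RNA to DNA, beside 36.9% of all reporters of the genome. A further 323 (28.7%) were lower, beside 33.7% of all reporters, and 332 passed in neither direction. Expression ran from -4.07 at the 5th percentile to 3.61 at the 95th, with an SD of 2.41 between reporters, while the error SD of a culture was 0.72. The 2 cultures ranked the reporters of a pool with a Spearman rho of 0.914 in mPGK-D to 0.962 in mPGK-F, as a description across reporters. Over all reporters, chromosome 4 averaged 0.10, against -0.20 in the rest of the genome. It was above the rest in 6 of 6 pools, by 0.31 ± 0.16 log2 units (SD, n = 6 pools), from 0.15 in mPGK-E to 0.57 in mPGK-B (exact sign-flip permutation test over pools, two-sided, p = 0.031, the smallest 6 pools allow, and 0.042 after Benjamini-Hochberg adjustment over 4 comparisons).

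**Figure D1:**
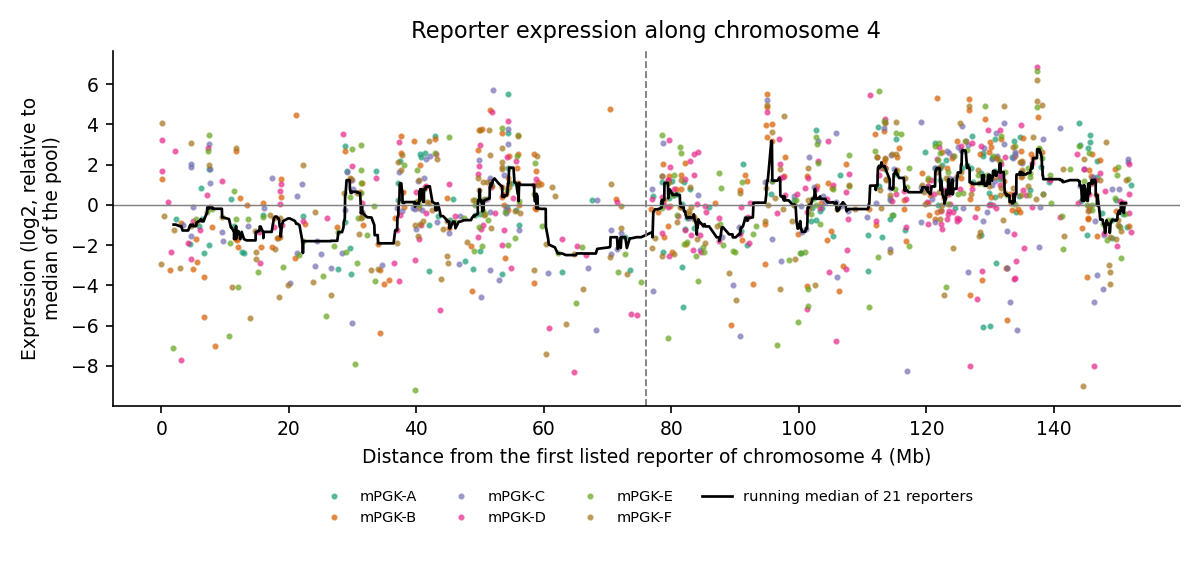
Expression of each of the 1124 reporters (log2, relative to the median of its pool, points coloured by pool) against its distance from the first listed reporter (Mb), with the running median of 21 reporters as a line and the middle of the listed span as a dashed line. The running median lies mostly below 0 on the proximal side and mostly above 0 toward the distal end, and single reporters far above and far below it occur along the whole chromosome.

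The chromosome was not even from end to end. Divided at the middle of the listed span, position 79564369, it had a proximal side toward the centromere and a distal side, and reporters of the distal side were higher on average. On the distal side, pool means ran from 0.25 in mPGK-D over a median of 0.45 to 0.71 in mPGK-B, and on the proximal side from -0.96 in mPGK-E over a median of -0.45 to -0.15 in mPGK-B. The groups did not overlap: the lowest distal mean was above the highest proximal mean. The distal side was higher by 0.93 ± 0.28 log2 units (SD, n = 6 pools), 1.91-fold, and in 6 of 6 pools, from 0.67 in mPGK-D to 1.47 in mPGK-E (exact sign-flip permutation test over pools, two-sided, p = 0.031, the smallest 6 pools allow, adjusted p = 0.042). The other 4 pools lay close together, with 0.87 in mPGK-A, 0.86 in mPGK-B, 0.84 in mPGK-C and 0.88 in mPGK-F.

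Strong reporters were more frequent on the distal side. On the distal side, 173 of 693 reporters (25.0%) lay more than 4-fold above the median of their pool, against 67 of 431 (15.5%) on the proximal side. More than 16-fold below it were 32 distal reporters (4.62%) and 27 proximal reporters (6.26%). By edgeR's quasi-likelihood calls, 332 distal reporters (47.9%) were higher and 151 (21.8%) lower than their pool, against 137 higher (31.8%) and 172 lower (39.9%) on the proximal side. The spread within each side stayed wide, with an SD of 2.32 between distal reporters and 2.45 between proximal ones, and single reporters of both sides overlapped over most of their range. Across the reporters of a pool, the Spearman rho of expression with position was 0.11 in mPGK-D to 0.35 in mPGK-E, as a description.

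**Figure D2:**
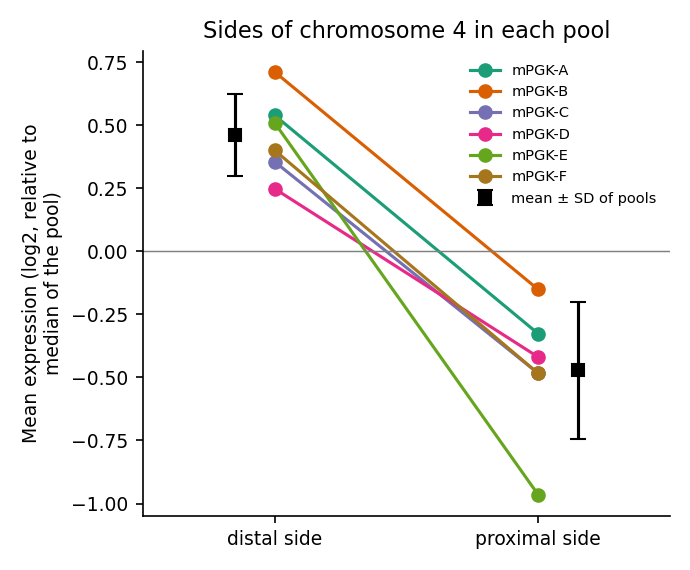
Mean expression of the distal and the proximal reporters of chromosome 4 in each pool (log2, relative to the median of the pool), joined by a line per pool, with the mean ± SD over the 6 pools as squares. Every line falls to the right, the steepest being that of mPGK-E, whose proximal mean of -0.96 is the lowest.

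Sides of other chromosomes differed as well, so the contrast was set against theirs. In a limma fit over 20 chromosomes, the distal side was higher at an adjusted p of 0.05 on 9 chromosomes (45.0%) and lower on 4 (20.0%). Chromosome 4 had a difference of 0.93 ± 0.15 (SE, adjusted p = 8.2e-08 by limma), the highest of the 20, followed by 0.80 ± 0.15 on chromosome 5. Chromosomes 16 and 14 had larger differences of the opposite sign, -1.41 ± 0.20 and -1.15 ± 0.16. The mean difference of the other 19 chromosomes was 0.06, and that of chromosome 4 exceeded their mean by 0.87 ± 0.26 (SD, n = 6 pools) in 6 of 6 pools (exact sign-flip permutation test over pools, p = 0.031, adjusted p = 0.042). Differences of both signs cancel in that mean, so this test is nearly that of chromosome 4 against 0. It does not test how unusual the contrast is among chromosomes. A difference from the mean of the others does not make chromosome 4 stand apart from chromosome 5, and that pair was not tested.

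Reporters also lay closer together on the distal side, with 9.11 per Mb against 5.67 per Mb on the proximal side, counted over all pools. On both sides mean expression was higher where more other reporters lay within 100 kb. Distal reporters with no such neighbour averaged -0.49 (n = 91) and those with 5 or more averaged 1.24 (n = 152). Proximal reporters with no such neighbour averaged -1.89 (n = 116) and those with 5 or more 0.84 (n = 64), so the sides were 1.40 apart among lone reporters and 0.40 apart among crowded ones. Compared within classes of this count, the distal side was still higher, by 0.67 log2 units (exact sign-flip permutation test over 6 pools, adjusted p = 0.042). Strand, by contrast, gave no difference in a set direction. Plus-strand reporters minus minus-strand reporters came to 0.003 ± 0.37 log2 units (SD, n = 6 pools), positive in 3 of 6 pools (exact permutation test, p = 1).

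In steps of 10 Mb from the centromeric end, a description with no test that was chosen after the values were seen, the chromosome passed through 6 stretches. The first 4 segments, up to 40000000, were low, with means over all reporters of -0.90, -0.99, -1.25 and -0.85. The next pair, from 40000001 to 60000000, lay above the median, with 0.19 and 0.53. A second low stretch, from 60000001 to 80000000, was the lowest of the chromosome, with -1.57 and -1.87. It was also the emptiest, with 31 and 24 reporters in its 2 segments, against 109 in the segment before it and 98 in the segment after it. The next 3 segments, to 110000000, stayed near the pool medians with -0.24, -0.05 and -0.29. The 4 segments from 110000001 to 150000000 formed the high stretch, with 1.12, 0.86, 0.85 and 1.14. The last segment, at the distal end, had -0.26 from 56 reporters. On this grid the high stretch began about 30 Mb past the middle and ended short of the last segment. The distal side was thus not high throughout. The limits of the stretch are those of the 10 Mb steps. Among the 2 Mb windows described below, those from 110000001 and 114000001 stood at 0.12 and 0.53 relative to the pool means. That from 148000001 stood at 0.19, and none of these was called higher. The first window of the stretch called higher began at 116000001.

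Pools differed in the sign of most low segments and of 1 high segment. In the segments from 110000001, 120000001 and 140000001, all 6 pools were above 0. In the segment from 130000001, 5 of 6 were, with mPGK-D at -0.05 and mPGK-E, the highest, at 1.77. Of the low segments, only the one from 20000001 was below 0 in all 6 pools, from -3.29 in mPGK-E to -0.26 in mPGK-D. In the segment from 10000001, mPGK-C at 0.22 and mPGK-D at 0.02 were above 0, and in that from 30000001 mPGK-D was, at 0.69. In the 2 lowest segments, mPGK-B was the exception. It had a mean of 0.30 from 7 reporters in the segment from 60000001 and of 2.54 from 2 reporters in that from 70000001, where the other 5 pools lay between -3.31 and -1.23. The first segment, by contrast, had a mean of -3.91 in mPGK-E from 2 reporters and of 0.25 in mPGK-C from 5 reporters.

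**Figure D3:**
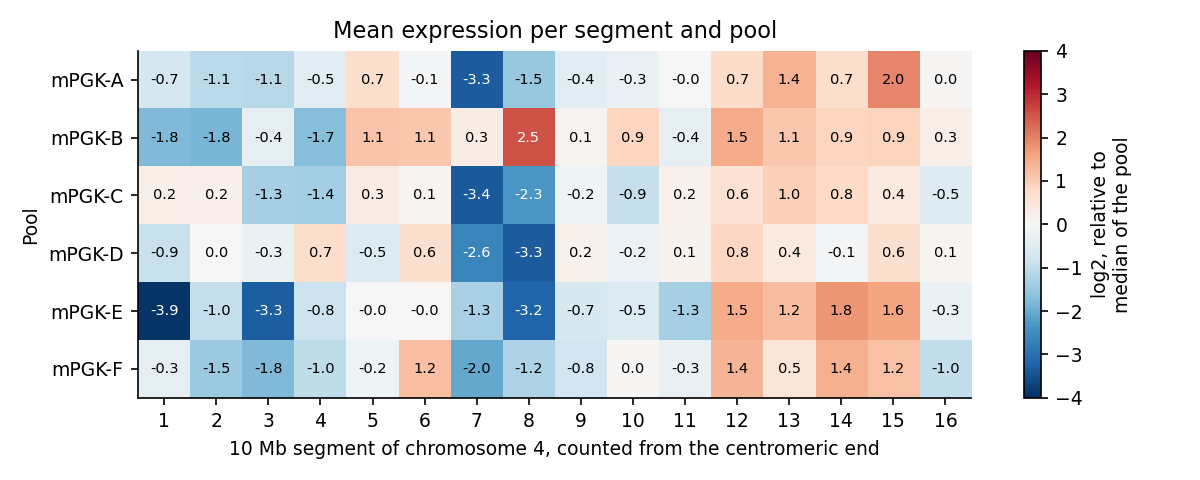
Mean expression (log2, relative to the median of the pool) in each 10 Mb segment of chromosome 4 and each pool, blue below and red above 0. Segments 12 to 15 are above 0 in every pool but mPGK-D in segment 14, and segments 7 and 8 are below 0 in every pool but mPGK-B.

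Windows of 2 Mb gave the landscape with a test. Of 78 windows on the chromosome, 69 held at least 5 reporters from at least 3 pools and were tested with limma across 1106 windows of the genome, on the mean of each pool relative to the mean of that pool. At an adjusted p of 0.05, 9 windows were higher, where 8.05% of all windows of the genome were, and 5 were lower, where 9.76% of all windows were. On the distal side 8 of 36 tested windows were higher and 1 was lower, and on the proximal side 1 of 33 was higher and 4 were lower. The higher windows were well filled, with 18 to 34 reporters from all 6 pools, and the lower ones held 5 to 7 reporters from 3 to 5 pools. The calls of the lower windows rested on few pools: no window was called lower without mPGK-E or without mPGK-F, 3 were without mPGK-D, and with any one of these 3 pools left out only 2 of the 5 still had enough reporters to be tested. No window was called lower in windows of 1 Mb. None was called lower among windows with at least 10 reporters either. None of the 5 held that many, so this setting could not test them.

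The highest window ran from 140000001 to 142000000. Its 22 reporters averaged 2.79, and 19 of them were above the median of their pool. By pool, its means were 1.89 in mPGK-A (1 reporter), 3.09 in mPGK-B (3), 0.36 in mPGK-C (3), 2.33 in mPGK-D (4), 3.33 in mPGK-E (6) and 3.98 in mPGK-F (5). All pools were above 0, and mPGK-C, with reporters at -2.11, -0.09 and 3.29, was the lowest. Relative to the pool means the window stood at 2.98 ± 0.46 (SE, limma adjusted p = 0.00012), and between 2.64 and 3.36 when a pool, a culture or another setting was changed.

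Within that window most of the strongest reporters were packed into a short stretch. The 3 printed reporters at 140841458, 140853193 and 140857158 lay among 7 reporters within 200 kb of the strongest one. Of these 7, 6 were above 4 on the log2 scale, from 4 pools and over 145 kb, the others being 4.88 at 140843964 in mPGK-E, 5.14 at 140860494 in mPGK-F and 4.34 at 140986034 in mPGK-B. On the whole chromosome, 40 reporters were that high. The seventh, at 140759353 in mPGK-F, 82.1 kb before the first of those 6, had 0.27. After the last of the 6, the mPGK-C reporter at 141154487 had -2.11, with 1113 and 1027 RNA reads and 13365 and 12138 DNA reads, so its low value was counted on many reads. Outside the short stretch, the mPGK-F reporter at 141627290 was also strong, with 4.96. The surroundings were not low as a whole: of the 22 reporters of the window, only 3 were below 0. On the left, the mPGK-F reporter at 140246018 had 3.35, and on the right the mPGK-E reporter at 141181397 had 2.76. The 6 of the short stretch stood on both strands, 3 on the plus and 3 on the minus strand.

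**Figure D4:**
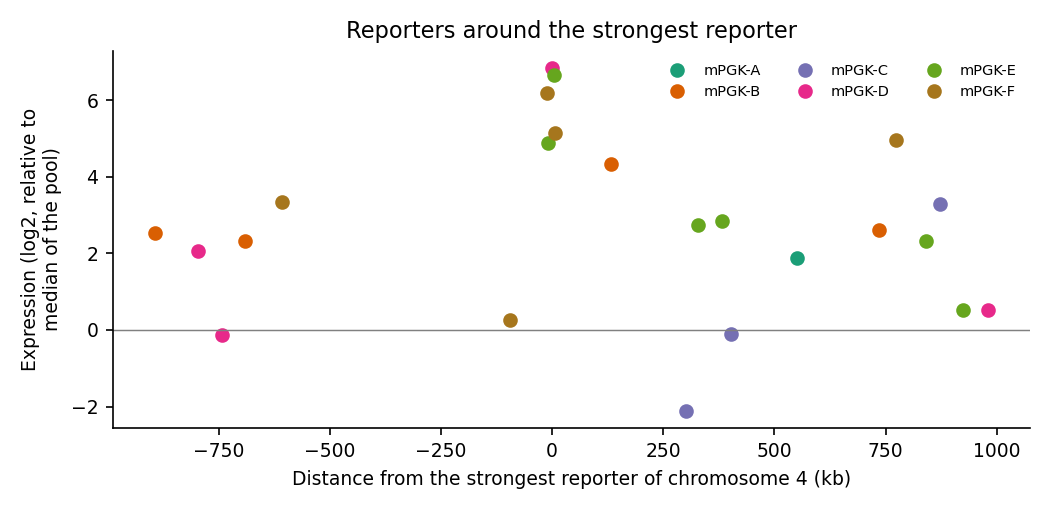
Expression of single reporters (log2, relative to the median of the pool, coloured by pool) by their distance in kb from the strongest reporter of chromosome 4. A group of 6 reporters between 4.34 and 6.85 stands within 145 kb. The reporters next to this group have 0.27 on the left and -2.11 on the right. Farther out, others are high again, and 19 of the 22 reporters of the window from 140000001 are above 0. Another strong reporter, of mPGK-F with 4.96 at 141627290, stands apart from the group of 6 on the right.

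The other higher windows of the high stretch were broad and moderate. The window from 134000001 had 32 reporters, 29 of them above the median, and stood at 1.98 ± 0.36 (SE, limma adjusted p = 0.00052). Its pool means ran from 0.86 in mPGK-A to 2.65 in mPGK-C. The windows from 116000001 and 118000001, which adjoin, stood at 1.82 ± 0.38 and 1.94 ± 0.47 (SE, limma adjusted p = 0.0023 and 0.0044), with 31 and 18 reporters. The window from 128000001 stood at 1.81 ± 0.40 with 24 reporters (SE, limma adjusted p = 0.0026). Those from 124000001 and 138000001 also passed. All 6 pools were above 0 in each of these windows.

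Outside that stretch, 2 windows were higher. The window from 98000001, with 21 reporters, stood at 2.19 ± 0.45 (SE, limma adjusted p = 0.0018), the second highest of the chromosome, in a segment whose mean was -0.05. Its reporters ran from -2.93 to 5.50 with a median of 1.20, and its highest pool mean, 4.63 in mPGK-D, was 1 reporter. The window from 56000001 was the only higher one on the proximal side. It was also the densest of the chromosome, with 34 reporters, of which 23 were above the median. Its level of 1.15 ± 0.34 (SE, limma adjusted p = 0.017) did not pass without mPGK-A or mPGK-F (limma adjusted p = 0.051 and 0.069), without the first culture (0.051) or with every pool weighted equally (0.1). Its pool means ran from 0.54 in mPGK-E to 1.91 in mPGK-F. The emptiest window was the first of the chromosome, to 2000000, with no reporter. In mm9, mouse chromosomes begin with unsequenced bases, to which no insertion can be mapped, so this empty window is no measurement.

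**Figure D5:**
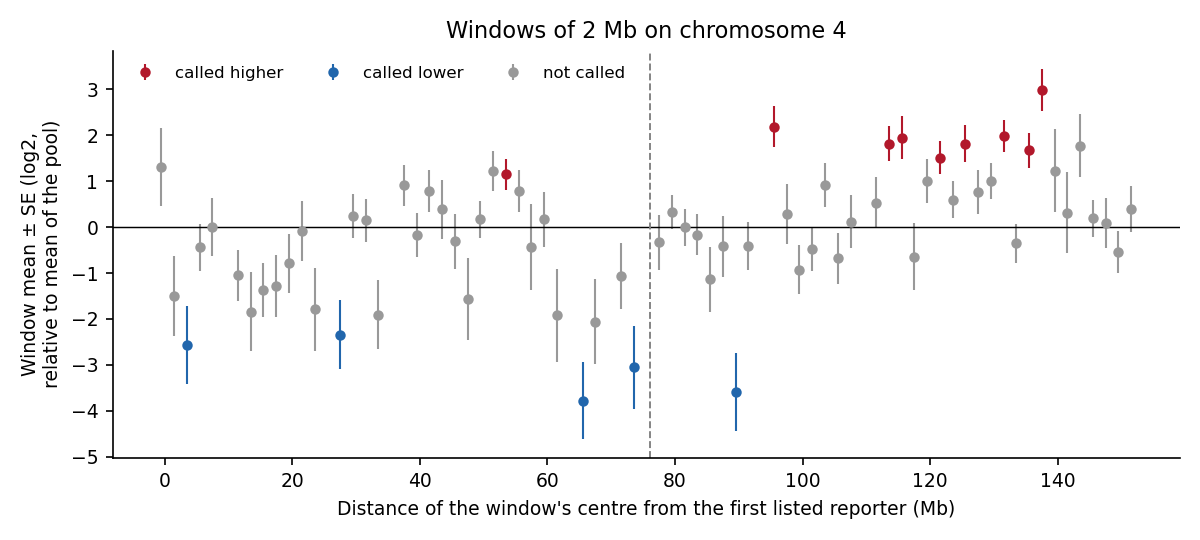
Level of each tested 2 Mb window of chromosome 4 relative to the mean of the pools (log2, point ± SE from limma) against the distance of its centre from the first listed reporter (Mb), with windows called higher in red and lower in blue and the middle of the chromosome as a dashed line. Of the 9 red windows 8 are distal, and of the 5 blue windows 4 are proximal.

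All reporters of the 5 lower windows lay below the median of their pool. The 6 reporters from 68000001 to 70000000 had means of -5.17 for both mPGK-D reporters, of which the one at 68286772 had no RNA read, -3.48 for both mPGK-E reporters and -3.29 for both mPGK-F reporters. The window stood at -3.79 ± 0.84 (SE, limma adjusted p = 0.003). By edgeR, on the same counts, all 6 were called lower, as were all 6 from 92000001, all 5 from 76000001 and all 7 from 30000001. From 6000001, 3 of 6 were called lower, beside 28.7% of all reporters of the chromosome. The window from 92000001, the distal one, stood at -3.59 ± 0.84 (SE, limma adjusted p = 0.004), with 6 reporters between -5.95 and -2.29 in 4 pools. From 76000001 there were 5 reporters in 4 pools, the lowest without an RNA read and the others between -3.42 and -1.61, at -3.05 ± 0.91 (SE, limma adjusted p = 0.02). The window from 6000001 had 6 reporters between -7.72 and -0.92 in 5 pools, at -2.58 ± 0.85 (SE, limma adjusted p = 0.034), and the window from 30000001 passed as well. The call of the window from 30000001 was also lost without mPGK-A or mPGK-C (limma adjusted p = 0.069 and 0.088), without the second culture (0.053) and with barcodes of several pools used once (0.087). That of the window from 6000001 was also lost without the second culture (limma adjusted p = 0.076) and with every pool weighted equally (0.056).

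Levels in the lower windows came from small numbers of RNA reads, which low expression itself gives. Their median reporter had 51 to 129 RNA reads over both cultures, against 983.5 to 2967.5 in the higher windows. In the window from 68000001, the mPGK-E reporter at 68503499 had 0 and 7 RNA reads in its 2 cultures, which gave -6.72 and -2.99. The mPGK-F reporter at 69558578 was firmer, with 25 and 40 RNA reads over 1601 and 1427 DNA reads and -4.17. In the window from 6000001, a pair 299 bases apart differed widely: the mPGK-B reporter at 6616461 had -0.92 and the mPGK-D reporter at 6616162 had -7.72, from 10 and 0 RNA reads over 1810 and 1353 DNA reads.

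Among 58 pairs of neighbouring windows, 1 differed past the threshold of limma across 931 pairs of the genome. It lay at 136000000, and the following window was lower than the preceding one, a direction called at 2.69% of all pairs in the genome. No pair with a higher following window was called, where 2.26% of all pairs were, and 6 rising and 5 falling pairs had an unadjusted limma p under 0.05. The following window, with 29 reporters, averaged -0.55, against 1.79 in the preceding window with 32 reporters, a difference of -2.22 ± 0.62 (SE, limma adjusted p = 0.034). It was lower in 4 of 6 pools. The following window averaged -1.17 against 1.68 in the preceding window in mPGK-B, -0.98 against 2.65 in mPGK-C, -2.20 against 1.79 in mPGK-D and 1.14 against 2.40 in mPGK-E. It was the higher one in mPGK-A, with 1.73 against 0.86, and in mPGK-F, with 1.87 against 1.65, where it held 3 and 2 reporters. The call was lost without mPGK-B, mPGK-C or mPGK-D (limma adjusted p = 0.11, 0.17 and 0.2) and where every pool had equal weight (0.26).

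The reporters nearest to the boundary are given as a description, since the pair of windows was called on the same reporters. On its following side, the 5 nearest, between 136032836 and 136149396, had -5.70 to -1.30 and came from 2 pools, mPGK-B and mPGK-C. The 5 nearest on its preceding side, between 135727610 and 135848323, had 0.59 to 4.90 and came from 5 pools. These groups were 185 kb apart. The next following reporter, at 136177379 in mPGK-E, had 0.47. Of the 29 following reporters 15 were nevertheless above their pool median, against 29 of the 32 preceding ones, and the spread was wider in the following window, with an SD of 2.75 against 1.52. The next window, from 138000001, was high again with a mean of 1.49, and that return did not pass (limma adjusted p = 0.083). The low reporters after the boundary thus lay inside the high stretch, in the segment from 130000001.

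Runs of neighbouring reporters on one side of their pool medians were short for the most part. There were 216 runs above, 86 of them single reporters, and 217 below, 111 of them single reporters. Runs of 10 or more reporters numbered 8 above and 6 below. Members of a run share a side of the median by definition, so edgeR calls in that direction partly follow. Of all 614 reporters above their median edgeR called 469 higher, and of all 510 below it called 323 lower. The longest runs above were compact and distal. The first had 18 reporters from 116797246 to 117750836, with a median of 1.97, of which edgeR called 15 higher. The second had 15 reporters from 134546350 to 135226859, with a median of 2.05 and 13 called, and the third 13 reporters from 118358671 to 119489347, with a median of 2.36 and 12 called.

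The longest runs below covered more of the chromosome with like numbers of reporters. The first had 17 reporters over 6103 kb, from 25742757 to 31845789, with a median of -2.37 and 14 called lower, and it was broken at both ends by strong reporters of 1.99 and 3.52. The second had 15 reporters from 16087383 to 19482500, with a median of -2.11 and 11 called. The third had 13 reporters over 5442 kb across the middle of the chromosome, from 75066682 to 80509100, with a median of -2.46 and 11 called. All 6 of these runs held reporters of all 6 pools, so none came from a single pool. Run lengths are descriptions with no test.

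Gaps without any listed reporter were found on both sides. They are gaps in the rows at hand, and insertions that these rows do not list were not analysed here. The median distance between neighbours was 55.1 kb on the distal side and 78.1 kb on the proximal side. There were 13 gaps over 1 Mb, 6 distal, 6 proximal and 1 across the middle, which together made 19.2 Mb. The longest, 2186 kb from 59751480 to 61937163, stood at the start of the lowest stretch, with an mPGK-F reporter of -0.40 before it and an mPGK-D reporter of 1.00 after it. The next were 1953 kb from 71863085 to 73816273, 1845 kb from 112294214 to 114139659, 1803 kb from 120770200 to 122573471 and 1534 kb from 78758029 to 80291978. At the gaps over 1 Mb, 18 of the 26 reporters at the borders were below the median of their pool, beside 510 of all 1124 on the chromosome. Of these 26, 2 were more than 16-fold below it, beside 4.62% of all distal and 6.26% of all proximal reporters. More than 4-fold above it was 1, beside 25.0% of all distal and 15.5% of all proximal reporters. These shares were not tested.

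Reporters of different pools at nearly the same place were compared in pairs. Within 5 kb of each other there were 125 pairs from different pools. Of these, 81 (64.8%) were within 4-fold and 16 (12.8%) were more than 16-fold apart. No share over pairs at other distances is given here, so these counts do not show how close neighbours compare with other pairs. Their correlation was 0.51 over the 125 pairs, which share chromosome, reporters and stretches of high density, and it is given as a description.

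At 7 places, reporters of 2 pools were listed 1 base apart on opposite strands. They are the closest match of position in the data, so the barcodes of the 2 places that differed by more than 16-fold are printed, followed by those of a place where both were alike.
mPGK-D, position 82924286, plus strand: ggagtatcaaagattg
mPGK-E, position 82924285, minus strand: taatcattacctatta
mPGK-E, position 116136003, plus strand: gtaattgacatattta
mPGK-A, position 116136002, minus strand: tcacttgggaattcaa
mPGK-B, position 46402866, plus strand: ttaattagttccttag
mPGK-A, position 46402865, minus strand: ccgggcatgccaacca

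At the first place the plus-strand reporter had -0.10, from 1513 and 1539 RNA reads, and the minus-strand reporter -6.61, from 0 and 4 RNA reads over 348 and 526 DNA reads, a 91.4-fold difference that rests on those 4 reads. At the second, the plus-strand reporter, among the 5 highest of the chromosome, had 5.03 and 6.26 in its cultures, and the minus-strand reporter had 0.80 and 1.08, a 25.9-fold difference with at least 380 RNA reads in each culture of either. These 2 places were chosen for a difference of more than 16-fold, and at each the cultures of the 2 reporters did not overlap. At the third, the plus-strand reporter had 3.27 and the minus-strand reporter 3.42, a 1.11-fold difference. Over the 7 places the plus-strand reporter was higher at 5, 3 places were within 4-fold, and the median absolute difference was 2.05 log2 units, against 1.90 over 65 such places in the genome, where 10 differed by more than 16-fold.

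Another close pair of different pools that differed by more than 16-fold stood 294 bases apart, in the higher window from 134000001. The mPGK-F reporter at 134369819 had 2.34, with 428 and 519 RNA reads over 262 and 226 DNA reads. The mPGK-A reporter at 134370113 had -2.88, with 44 and 31 RNA reads over 711 and 908 DNA reads, 37.2-fold lower. Each was read alike in its 2 cultures, with 2.10 and 2.60 in mPGK-F and -2.59 and -3.19 in mPGK-A. This pair was chosen for its difference of more than 16-fold, so a difference beyond the spread between cultures follows from the choice. It stood in a window whose mean was above 0 in every pool.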

How the data were processed

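The deposited table lists barcodes with pool, place in mm9, strand and, for each culture, counts of reads from DNA and from RNA, not normalized, per the file headers. Bowtie2 2.0 and mm9 are named in the submitters' processing notes. The sources used here do not give how the authors combined the 2 PCRs of a culture, which barcodes they kept or whether positions start at 0 or 1, which leaves each position uncertain by a base. Totals are sums over listed barcodes, and the mapping libraries among the 72 libraries enter only through positions.

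Expression was log2 of RNA share over DNA share, with 0.5 added to RNA reads, averaged over cultures and centred on the pool median. The pool was the unit: comparisons of sides, strands and chromosomes used exact sign-flip tests over 6 pools, and windows and window pairs limma 3.58.1 across the genome, weighted by reporters. RNA and DNA counts were compared within pools by edgeR 4.0.16 in R 4.3.3 (TMM, shifted to the pool median), with DESeq2 1.42.0 as an alternative. Adjusted p-values follow Benjamini and Hochberg. Scripts were tested on simulated data. Replicate numbers pair RNA and DNA of a culture, per the labels, with correlations of their deviations of -0.00212 to 0.0576. Members and lists were chosen with earlier results of these data known. Named were the 6 highest and 4 lowest windows past the threshold, every called edge, the 5 highest and 5 lowest reporters, the 3 longest runs each way, the 5 longest gaps, the densest and the emptiest window, and the 3 closest discordant pairs. Other called windows, other printed reporters and the third same-place pair were chosen after their values were seen. Read counts without molecular identifiers are not independent molecules, so counts, floors and tests on reads cover counting error only.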

Additional observations from a re-analysis of the deposited data

Results flagged for a closer look

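In groups of 6 pool values, a pool far from the other 5 stood out in 4 of 36 groups examined, where chance flags about 1 in 20. The difference between the distal and the proximal side was 1.47 in mPGK-E, above all other pools (0.67 to 0.88), and so was its excess over the mean of the other chromosomes, 1.36 in mPGK-E. Both follow the same low proximal mean of mPGK-E, -0.96 from 70 reporters. In the segment from 70000001, mPGK-B had 2.54 from 2 reporters. The reporter at 73907257 had 8568 and 7451 RNA reads over 808 and 773 DNA reads, and that at 74879410 had 1067 and 1001 RNA reads over 2401 and 2171 DNA reads. In the segment from 100000001, mPGK-E had -1.31 from 16 reporters, while the other 5 pools lay between -0.37 and 0.17.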

How the results depend on the processing

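The difference between the sides, the level of chromosome 4 against the rest and the excess over other chromosomes were above 0 under every alternative run, and passed in each one that left 6 pools. With a pool left out they were 0.82 to 0.98, 0.25 to 0.34 and 0.77 to 0.92, and 5 pools cannot reach 0.05 in the exact test. Divided at the median reporter, the sides differed by 1.17. The strand difference, near 0 throughout, was -0.022 with the second culture left out (-0.022 to 0.0282 over both cultures), -0.0169 with barcodes of several pools used once, and -0.0878 to 0.0975 with a pool left out.

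Windows called lower were 3 without the reporters of the lowest 10% of DNA reads, where 3 of the 5 were still tested. They were 0 at 1 Mb and 8 at 4 Mb. With at least 10 reporters they were 0, but none of the 5 could then be tested. They were 0 to 5 with a pool left out and 3 to 5 with a culture left out. With a 10 times larger pseudocount they were 6, as by ranks, and all 5 were still called in both settings. Windows called higher were 7 to 12 throughout, though those from 56000001 and 124000001 missed with equal weights (limma adjusted p = 0.1 and 0.056). Window pairs with a higher following window were 1 with a 10 times larger pseudocount, without those low-DNA reporters and on the grid shifted by 1 Mb, 2 by ranks and 5 at 4 Mb. Pairs with a lower one were 2 at 4 Mb, 0 on the shifted grid and with equal weights, and 0 to 1 with a pool left out. The cause was not tested.

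Of single reporters, DESeq2 called 472 higher and 322 lower, and TMM without the shift 427 and 371. With the culture as a replicate block, 468 were higher and 321 lower, 463 and 317 of them shared with the unblocked calls, so the pairing of RNA and DNA by culture moved the counts little. With either culture left out, all 469 and 323 kept their direction. These reporters had been called on both cultures together, so the kept direction largely follows from the calls and does not test them. Few RNA reads limit the depth of lower windows.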
